A study of Mus musculus with 24 samples.

Results

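A set of 10 genes that mark cardiac fibroblasts were followed in the mouse left ventricle after pressure overload: 5 genes of resident fibroblasts (Pdgfra, Tcf21, Gsn, Ddr2 and Scara5) and 5 genes of activated fibroblasts (Fap, Meox1, Cilp, Thy1 and Comp). They were named as markers of the 2 states, with earlier results of these data known, and all 10 were found among the 24015 genes of the count table. All 10 were also among the 13816 genes kept by a filter on low counts. The tissue was left ventricle of mouse heart, taken 2, 4, 7 or 21 days after transverse aortic constriction (TAC, a narrowing of the aorta that loads the ventricle with pressure) or after a sham procedure. Each of the 8 groups of operation and day held 3 libraries of total RNA, 24 in all, and sham hearts of the same day were the control. The labels give no strain, genotype, sex or age, and do not say whether the 3 libraries of a group came from separate animals, so that p-values measure the spread between these libraries, which may be technical.

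Cardiac fibroblasts lie between the muscle cells and keep up the collagen matrix. In the unstressed heart they carry the growth factor receptor Pdgfra and the transcription factor Tcf21, and under load or after injury they can divide, turn on contractile genes and lay down matrix. Genes such as Fap, Meox1 and Cilp are known marks of that activated state, and Comp belongs to the matrix of tendon, cartilage and late scars. The ventricle was sequenced whole, so that more cells of a type and more RNA per cell cannot be told apart in any value below.

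Totals per library ran from 10.7 to 17.6 M counted reads (1 M is 1000000 reads), and the lowest count of any of the 10 genes in a library was 9 reads, for Comp. Counts are given as CPM, counts per M reads scaled by the trimmed mean of M-values (TMM) and listed for replicates 1, 2 and 3 in that order. Effects are log2 ratios of TAC to sham, each ± its standard error (SE), from edgeR's quasi-likelihood test. A gene passed where its p, adjusted by Benjamini-Hochberg over all 13816 genes, was under 0.05. The response of the muscle checked the labels: Nppa, the atrial natriuretic peptide gene, was at 113 to 307 CPM in the 12 sham libraries and at 678 to 3409 CPM in the 12 TAC libraries. Myl7, an atrial myosin light chain, was over 30 CPM in 4 libraries (replicates 2 and 3 of sham at day 2, replicate 2 of sham at day 21 and replicate 1 of TAC at day 7), and calls of the 10 genes that change without these 4 are named beside each gene. The sources used here do not say whether counting kept the strand, so that reads of overlapping or antisense transcripts may be included.

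Of the 5 activated genes, 4 rose at days 4 and 7, and the resident genes did not move as a set. At day 4, 5 of the 10 genes passed the test as higher (Ddr2, Fap, Meox1, Cilp and Thy1), against 14.4% of all genes, and 1 as lower (Gsn), against 10.1%. At day 7, 6 passed as higher (the same 5 and Tcf21), against 13.1% of all genes, and 1 as lower (again Gsn), against 10%. Without replicate 1 of TAC at day 7, 2 passed as higher at that day (Meox1 and Thy1), as they did without the 4 libraries over 30 CPM of Myl7, of which that replicate is 1. Without replicate 2, 2 passed as lower (Gsn and Scara5). At day 2 the test passed 0 genes as higher (3.73% of all genes) and 0 as lower (0.854%), and 2 of the 10 had an unadjusted p under 0.05. At day 21 it also passed 0 as higher (0.622% of all genes) and 0 as lower (0.470%), with 3 of 10 at an unadjusted p under 0.05. DESeq2 and limma-voom called 0 at day 2, and at day 21 DESeq2 called 3 as higher (Meox1, Cilp and Thy1) and voom 0. Without replicate 2 of TAC at day 21, edgeR called 2 there, Meox1 and Cilp. Shares of all genes called by DESeq2, by voom or with fewer libraries are not reported here. These counts, and later counts of such settings, cannot be set against them.

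Read library by library, without a model, the order was similar. At day 4, 5 genes were higher in all 3 TAC libraries than in any sham library of that day (21.5% of all genes were) and 2 were lower (19.6%). At day 7 the counts were again 5 (20.5% of all genes) and 2 (19.4%), and at day 2 they were 2 (11.2%) and 1 (11.2%). At day 21, 2 genes were higher without overlap (11.9% of all genes) and 0 lower (10.5%). The median log2 fold change of the 5 activated genes was 0.72, 1.97, 2.06 and 1.49 at days 2, 4, 7 and 21, and that of the 5 resident genes -0.02, 0.20, 0.15 and -0.03. Over all genes tested the medians lay between -0.01 and 0.01. In each of the 25 pairings of an activated with a resident gene, the activated gene had the larger log2 fold change at days 4 and 7, and in 23 and 24 pairings at days 2 and 21. The pairings reuse the same 10 effects a day, of genes named with earlier results known, so that this order is description only.

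**Figure D1:**
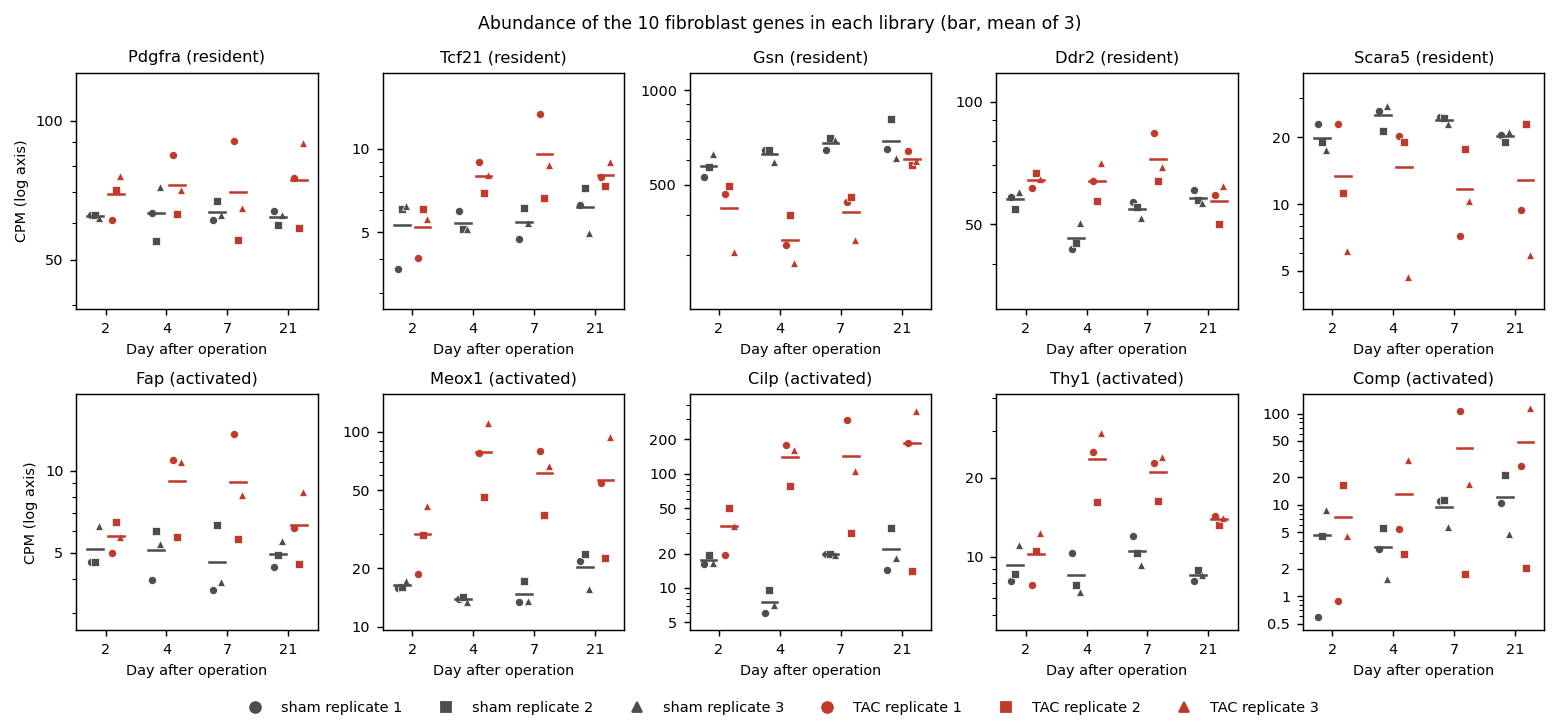
CPM of each gene (log axis) in every library by day after the operation, with sham in grey, TAC in red, a symbol for each replicate and a bar at the mean of 3. The upper row holds the resident and the lower row the activated genes; Gsn lies lower and Meox1 and Thy1 higher in all TAC libraries at days 4 and 7, and Cilp and Comp spread widest.

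The deposited RPKM (reads per kilobase and M reads), which correct for length, allow levels to be ordered between genes. In the 12 sham libraries Gsn had a median of 283 RPKM, and its range of 243 to 334 lay clear of all others. Pdgfra followed at 9.16 RPKM, then Meox1 at 7.37, Scara5 at 6.07, Ddr2 at 6.05, Tcf21 at 5.71, Thy1 at 5.26, Cilp at 4.60, Comp at 3.10 and Fap at 1.67. From Pdgfra down, neighbours in this order overlapped in range, so that only the place of Gsn was set apart. In the 12 TAC libraries the median of Cilp was 23.9 RPKM and that of Meox1 23.4 RPKM, behind Gsn at 192, and Scara5 stood at 3.03 RPKM, next to last before Fap at 2.24.

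**Figure D2:**
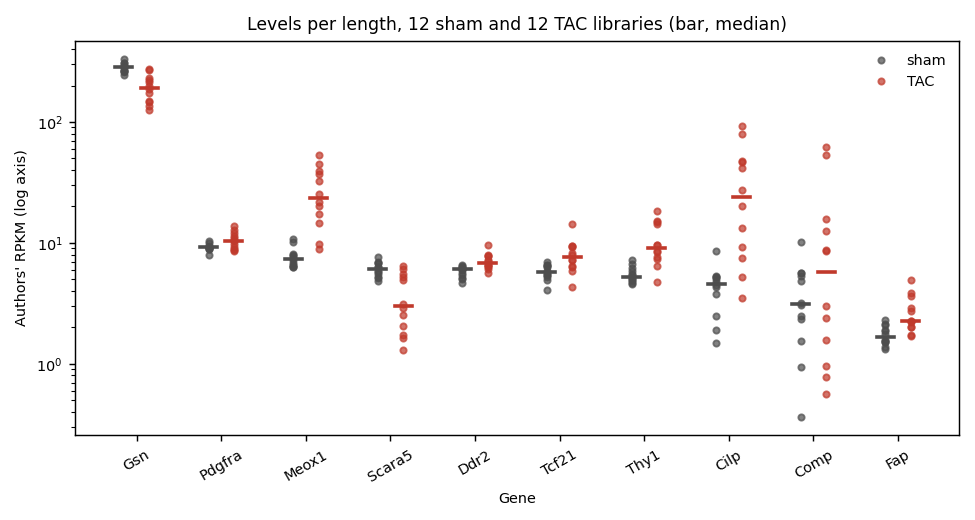
Levels per length, as the authors' RPKM on a log axis, of the 10 genes in 12 sham libraries (grey) and 12 TAC libraries (red), ordered by their sham median (bars mark medians). Gsn stands far above the rest, and Cilp runs from 3.47 to 92.6 RPKM among TAC libraries.

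Gelsolin, encoded by Gsn, severs and caps actin filaments, and was the resident gene that fell at single days. Its CPM in sham libraries were 531, 569 and 625 at day 2, 643, 646 and 589 at day 4, 647, 703 and 692 at day 7 and 652, 808 and 609 at day 21. In TAC libraries they were 466, 494 and 306 CPM at day 2, 323, 400.0 and 282 at day 4, 439, 456 and 335 at day 7 and 640.4, 577 and 595 at day 21. All TAC libraries lay under all sham libraries at days 2, 4 and 7, and the groups overlapped at day 21. The log2 fold change was -0.90 ± 0.16 at day 4 (adjusted p = 0.000673) and -0.73 ± 0.16 at day 7 (adjusted p = 0.00314), and both calls held in all 18 alternative settings. At days 2 and 21 it was -0.45 ± 0.16 (adjusted p = 0.11) and -0.19 ± 0.16 (adjusted p = 0.553). Gsn is not particular to fibroblasts: many cells, muscle among them, make gelsolin. Of 10 cardiomyocyte markers, 5 fell at day 4 and 5 at day 7, against 10.1% and 10% of all genes. Among them was Pln, the regulator of the calcium pump (-0.67 ± 0.13 at day 4). The summed CPM of the 10 markers were 148678 to 187260 after TAC at day 4 against 190333 to 213390 in sham. The part of the cardiomyocyte share in the fall of Gsn was not tested.

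Scara5, a scavenger receptor that takes up ferritin, was the most uneven resident gene after TAC. Sham libraries held 22.9, 19.1 and 17.5 CPM at day 2, 26.4, 21.4 and 27.9 at day 4, 24.9, 24.5 and 22.98 at day 7 and 20.5, 18.99 and 21.2 at day 21. TAC libraries held 23, 11.2 and 6.12 CPM at day 2, 20.3, 18.99 and 4.71 at day 4, 7.20, 17.7 and 10.3 at day 7 and 9.44, 23.1 and 5.89 at day 21. The highest of the 12 sham libraries was 1.59 times the lowest, and among the 12 TAC libraries this ratio was 4.91. TAC lay under sham without overlap at days 4 and 7, but the effects of -0.80 ± 0.46 (adjusted p = 0.213) and -1.05 ± 0.47 (adjusted p = 0.109) did not pass. Without replicate 2 of TAC the effect of day 7 passed at -1.46 (adjusted p = 0.0436; 0.0288 to 0.416 over 18 alternatives). Averaged over the 4 days, an average chosen after seeing the data, Scara5 was lower at -0.78 ± 0.23 (adjusted p = 0.0104), and that call held in all 35 alternatives.

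Tcf21, a basic helix-loop-helix factor needed for the fibroblast lineage of the heart, rose at day 7. Its CPM in sham libraries were 3.69, 6.05 and 6.24 at day 2, 5.98, 5.12 and 5.14 at day 4, 4.74, 6.14 and 5.41 at day 7 and 6.26, 7.24 and 4.97 at day 21. After TAC they were 4.02, 6.07 and 5.56 CPM at day 2, 8.95, 6.95 and 8.08 at day 4, 13.4, 6.65 and 8.73 at day 7 and 7.93, 7.33 and 8.99 at day 21. From day 4 on, every TAC library lay above every sham library of its day, at day 21 by a margin of 7.33 against 7.24 CPM. The effect passed at day 7 (0.83 ± 0.23, adjusted p = 0.0159) and not at day 4 (0.56 ± 0.23, adjusted p = 0.0825) or day 21 (0.40 ± 0.23, adjusted p = 0.391). Without replicate 1 of TAC at day 7 the effect of that day was 0.51 (adjusted p = 0.158), and over 18 alternatives the adjusted p ran from 0.00176 to 0.158, with the call lost in 5. It was also lost without replicate 1 or 3 of sham (0.74 and 0.83, adjusted p = 0.067 and 0.0526) and without the libraries over 30 CPM of Myl7 (0.51, adjusted p = 0.139). Without those libraries the effect of day 4 passed (0.57, adjusted p = 0.0333; 0.0333 to 0.205 over its 18 alternatives). The average over the days was 0.44 ± 0.12 (adjusted p = 0.00418). Epicardial cells also carry Tcf21: of 7 epicardial markers 3 passed the filter (not Upk3b, Upk1b, Msln or Krt19). At day 7 all 3 rose, against 13.1% of all genes, with Wt1 at 1.20 ± 0.23 and Aldh1a2, the retinoic acid enzyme, at 1.90 ± 0.60. The 7 markers summed to 28.9 to 37.8 CPM after TAC at day 7 and to 15.0 to 15.9 CPM in sham, and their part in the rise of Tcf21 was not tested.

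Ddr2, a receptor tyrosine kinase that binds fibrillar collagen, rose by a small amount at days 4 and 7. At day 4 sham libraries held 43.4, 45.1 and 50.3 CPM and TAC libraries 63.7, 57.03 and 70.6 CPM. At day 7 sham libraries held 56.7, 55.1 and 51.9 CPM and TAC libraries 83.8, 64.05 and 69.1 CPM. The groups did not overlap at either day, and the effects were 0.46 ± 0.10 (adjusted p = 0.00311) and 0.41 ± 0.10 (adjusted p = 0.00808). The call of day 7 was lost without replicate 1 of TAC (0.29, adjusted p = 0.0743) and without the libraries over 30 CPM of Myl7 (0.29, adjusted p = 0.121), the highest adjusted p over its 18 alternatives, of which the lowest was 0.00216. The sham libraries of day 4 were the lowest sham group for Ddr2, at 46.3 ± 3.57 CPM (SD, n = 3) against 54.6 ± 2.43 at day 7. At day 2 the libraries held 58.4, 54.7 and 60.1 CPM in sham and 61.3, 66.8 and 64.4 CPM after TAC, and at day 21 60.9, 57.3 and 56.4 and 58.98, 49.98 and 62.1; the effects were 0.15 ± 0.10 (adjusted p = 0.415) and -0.03 ± 0.10 (adjusted p = 0.912).

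Pdgfra, the alpha receptor for platelet-derived growth factor and a common marker of cardiac fibroblasts, stayed within a narrow range. The 12 sham libraries ran from 54.8 to 71.9 CPM with a median of 62.6, and the 12 TAC libraries from 55.3 to 90.5 CPM with a median of 70.8. TAC and sham overlapped at every day. Its effects were 0.16 ± 0.16, 0.20 ± 0.16, 0.15 ± 0.16 and 0.26 ± 0.16 at days 2, 4, 7 and 21 (adjusted p = 0.62, 0.366, 0.524 and 0.395). The average over the days was 0.19 ± 0.078 (adjusted p = 0.0504), just outside the threshold, and 11 of 35 alternatives put it inside. Among TAC libraries, Pdgfra was highest in replicate 1 at day 7 and replicate 3 at day 21, at 90.5 and 89.6 CPM.

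Cilp, which encodes a secreted matrix protein of cartilage and of the loaded heart, had the largest effect of the 10 genes at days 2, 4, 7 and 21. In sham libraries it stood at 16.2, 19.6 and 16.6 CPM at day 2, 5.98, 9.50 and 7.15 at day 4, 19.8, 19.97 and 19.3 at day 7 and 14.3, 33.7 and 18.3 at day 21. In TAC libraries it stood at 19.5, 50.6 and 34.97 CPM at day 2, 179.5, 78.3 and 159.9 at day 4, 298, 30.2 and 105 at day 7 and 184, 14.1 and 354 at day 21. At day 4 the lowest TAC library, at 78.3 CPM, lay far above the highest sham library, at 9.5 CPM, and at day 21 replicate 2 lay under all sham libraries while the other 2 lay far above. The effect was 4.20 ± 0.83 at day 4 (adjusted p = 0.00168), a call kept in all 18 alternatives, and 2.88 ± 0.76 at day 7 (adjusted p = 0.0113). Without replicate 1 of TAC at day 7 the latter was 1.79 (adjusted p = 0.120), as it was without the libraries over 30 CPM of Myl7 (adjusted p = 0.168), and the call of day 7 was lost in 7 of 18 alternatives, whose adjusted p ran from 0.0023 to 0.168. At day 21 it was 3.08 ± 0.76 (adjusted p = 0.0511), and without replicate 2 of TAC it passed at 3.62 (adjusted p = 0.00278), the lowest of 18 alternatives, of which the highest was 0.263. Sham libraries of day 4 were the lowest sham group for Cilp, at 7.54 ± 1.80 CPM against 19.7 ± 0.378 at day 7 (SD, n = 3). Mean Cilp after TAC was 139 ± 53.7, 144 ± 138 and 184 ± 170 CPM at days 4, 7 and 21 (SD, n = 3).

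Meox1, a homeobox transcription factor, rose at days 4 and 7. Its CPM in sham libraries were 15.8, 16.1 and 17.1 at day 2, 13.9, 14.3 and 13.5 at day 4, 13.5, 17.1 and 13.6 at day 7 and 21.7, 23.7 and 15.6 at day 21. After TAC they were 18.7, 29.7 and 41.9 CPM at day 2, 77.3, 46.5 and 111 at day 4, 79.2, 37.5 and 66.7 at day 7 and 54.3, 22.6 and 93.6 at day 21. TAC lay above sham without overlap at days 2, 4 and 7, and at day 21 replicate 2 lay within the sham range. The effects were 2.50 ± 0.40 at day 4 (adjusted p = 0.000423) and 2.06 ± 0.39 at day 7 (adjusted p = 0.00143), and both held in all 18 alternatives. At days 2 and 21 they were 0.89 ± 0.38 (adjusted p = 0.198) and 1.49 ± 0.38 (adjusted p = 0.0606). Without replicate 2 of TAC at day 21 the effect of that day passed at 1.87 (adjusted p = 0.00532; 0.00349 to 0.317 over 18 alternatives).

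Thy1, a surface glycoprotein of fibroblasts that T cells and neurons also carry, rose at days 4 and 7. Its CPM in sham libraries were 8.10, 8.65 and 11.1 at day 2, 10.4, 7.80 and 7.39 at day 4, 12, 10.4 and 9.32 at day 7 and 8.08, 8.93 and 8.57 at day 21. After TAC they were 7.80, 10.5 and 12.4 CPM at day 2, 25.1, 16.1 and 29.6 at day 4, 22.6, 16.4 and 23.9 at day 7 and 14.3, 13.3 and 14.1 at day 21. TAC lay above sham without overlap at days 4, 7 and 21. The effects were 1.47 ± 0.21 (adjusted p = 0.00019) and 0.99 ± 0.20 (adjusted p = 0.00227), kept in all 18 alternatives each, and 0.71 ± 0.21 at day 21 (adjusted p = 0.098). T cell markers were scarce: 8 of them summed to 1.22 to 3.98 CPM in sham libraries and 2.76 to 5.76 CPM in TAC libraries, with Cd3d, Cd3e, Cd3g, Cd2, Lck and Cd8a under the filter. Of 7 Schwann and nerve markers 6 were tested and 2 rose at day 4, against 14.4% of all genes. These were Uchl1 (1.52 ± 0.31) and the tubulin Tubb3 (3.91 ± 0.80). The part of these cells in the rise of Thy1 was not tested.

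Fap, a surface protease of activated fibroblasts, rose at days 4 and 7. At day 4 sham libraries held 3.96, 6.01 and 5.38 CPM and TAC libraries 10.98, 5.70 and 10.7 CPM. At day 7 they held 3.63, 6.31 and 3.90 and 13.6, 5.61 and 8.10 CPM. At both days replicate 2 of TAC lay within the sham range and the other 2 lay above it. The effects were 0.84 ± 0.30 (adjusted p = 0.0474) and 0.99 ± 0.31 (adjusted p = 0.0256), with the call lost in 11 and 6 of 18 alternatives. At day 4 it was lost without any one library of that day except replicate 2 of TAC (adjusted p = 0.0118 to 0.189 over all 18 alternatives), and at day 7 it was lost without replicate 1 of TAC (0.58, adjusted p = 0.230; 0.0054 to 0.282 over 18 alternatives). At day 7 it was also lost without replicate 1 or 3 of sham (0.84 and 0.89, adjusted p = 0.103 and 0.0989) and without the libraries over 30 CPM of Myl7 (0.58, adjusted p = 0.282). At days 2 and 21 the groups overlapped, at 5.15 ± 0.943 and 5.73 ± 0.744 CPM and at 4.95 ± 0.535 and 6.34 ± 1.90 CPM (SD, n = 3, sham first).

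Comp, cartilage oligomeric matrix protein or thrombospondin-5, spread too widely for any day to pass. Sham libraries held 0.593, 4.54 and 8.82 CPM at day 2, 3.25, 5.52 and 1.53 at day 4, 11.1, 11.2 and 5.77 at day 7 and 10.4, 21.2 and 4.74 at day 21. TAC libraries held 0.885, 16.6 and 4.60 CPM at day 2, 5.42, 2.92 and 31.3 at day 4, 107, 1.76 and 16.7 at day 7 and 26.5, 2.01 and 116 at day 21. Within the TAC groups of days 7 and 21, replicate 2 was the lowest of all 6 libraries of its day and another replicate the highest. The effects were 0.72 ± 1.29, 1.97 ± 1.34, 2.17 ± 1.17 and 2.02 ± 1.15 (adjusted p = 0.805, 0.29, 0.182 and 0.373). Averaged over the days it was higher at 1.72 ± 0.62 (adjusted p = 0.0276), a call lost in 10 of 35 alternatives (adjusted p = 0.000231 to 0.450), among them leaving out replicate 2 of TAC at day 2, replicate 3 of TAC at day 4, replicate 1 of TAC at day 7, replicate 3 of TAC at day 21 or the libraries over 30 CPM of Myl7. Tendon and cartilage markers, of which Mkx and Matn3 were under the filter, moved with it in some libraries: 6 of them summed to 56.3 CPM in replicate 1 of TAC at day 7, where Comp was at 107 CPM, and to 1.44 CPM in replicate 2, where Comp was at 1.76 CPM. At day 21 they summed to 20.9 CPM in replicate 3 of TAC, where Comp was highest at 116 CPM, and to 1.96 CPM in replicate 1, under every sham library of that day (5.66 to 29.99 CPM), where Comp at 26.5 CPM lay above every sham library. In sham libraries these markers summed to 0.241 to 29.99 CPM, with the highest sum in replicate 2 at day 21, which also had the highest Comp of the sham libraries and was among the libraries over 30 CPM of Myl7. The part of such tissue in the values of Comp was not tested.

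**Figure D3:**
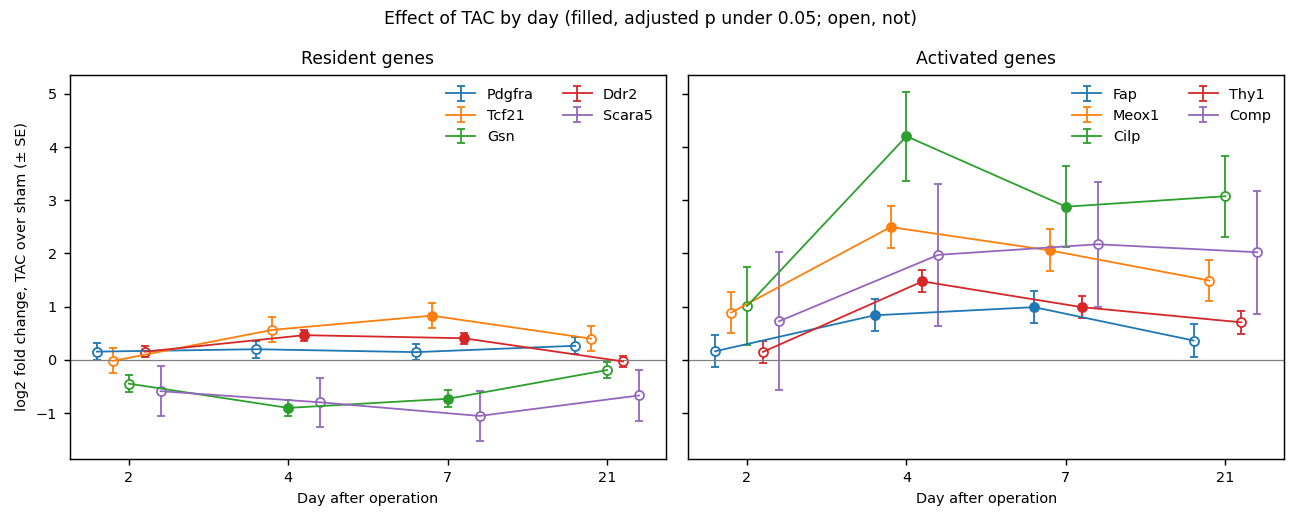
Log2 fold change of TAC over sham (± SE) by day for the 5 resident genes (left) and the 5 activated genes (right) on 1 scale, where filled points passed an adjusted p of 0.05 and open points did not. The log2 fold change of Cilp is largest at day 4 (4.20), the day of its lowest sham libraries. Gsn and Scara5 lie below 0 at each day, and the widest error bars belong to Comp.

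Averaged over the 4 days, 7 of the 10 genes were higher after TAC, against 24.4% of all genes, and 2 were lower, against 21.4%. Higher were Tcf21, Ddr2, Fap, Meox1, Cilp, Thy1 and Comp, and lower were Gsn and Scara5, so that 4 of the 5 resident genes changed, 2 in each direction. Whether an effect differed between days was tested directly. Between days 2 and 4 the effect differed for 0 of the 10 genes (0% of all genes; 4 of 10 at an unadjusted p under 0.05), the nearest being Thy1 at 1.32 ± 0.29 (adjusted p = 0.212). DESeq2 called 1 there and voom 0. Between days 4 and 7 it differed for 0 (0.0507% of all genes; 0 of 10 unadjusted; DESeq2 and voom 0), and between days 7 and 21 for 0 (0.0651% of all genes; 2 of 10 unadjusted; DESeq2 and voom 0). Over all 4 days at once it differed for 0 (0.369% of all genes; 4 of 10 unadjusted; DESeq2 1, voom 0). The effects were thus not shown to differ between days, although calls were made at days 4 and 7 and not at days 2 and 21. Sham hearts differed over the days in 0 of the 10 genes (0.680% of all genes), with 1 of 10 at an unadjusted p under 0.05 and 0 by DESeq2 and voom. The test took its spread from sham and TAC libraries together, and TAC libraries varied more. Cilp in sham lay at 5.98 to 9.50 CPM at day 4 and at 19.3 to 19.97 CPM at day 7, without overlap.

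Upstream sequence was matched for 5 of the 10 genes in RefSeq (build GRCm38.p6), with 7 windows of 250 bases that end at the start site. Cilp, which rose, Gsn, which fell, and Tcf21 are shown because they had unlike responses. Capitals mark matches to the E-box letters CAGCTG, bound by helix-loop-helix factors such as Tcf21, and to the SMAD letters CAGAC, which read GTCTG from the other strand.
Cilp, chr9:65264930-65265179, plus strand: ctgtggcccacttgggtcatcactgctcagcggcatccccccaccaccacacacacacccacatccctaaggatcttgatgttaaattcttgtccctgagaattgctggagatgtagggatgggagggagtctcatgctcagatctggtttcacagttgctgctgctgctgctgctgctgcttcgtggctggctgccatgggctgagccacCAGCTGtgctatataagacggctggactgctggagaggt
Gsn, chr2:35256109-35256358, plus strand: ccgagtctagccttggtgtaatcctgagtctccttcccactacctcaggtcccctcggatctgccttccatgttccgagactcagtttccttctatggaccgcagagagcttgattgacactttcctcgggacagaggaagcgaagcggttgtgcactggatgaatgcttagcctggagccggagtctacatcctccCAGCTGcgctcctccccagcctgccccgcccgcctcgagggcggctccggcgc
Tcf21, chr10:22820144-22820393, minus strand: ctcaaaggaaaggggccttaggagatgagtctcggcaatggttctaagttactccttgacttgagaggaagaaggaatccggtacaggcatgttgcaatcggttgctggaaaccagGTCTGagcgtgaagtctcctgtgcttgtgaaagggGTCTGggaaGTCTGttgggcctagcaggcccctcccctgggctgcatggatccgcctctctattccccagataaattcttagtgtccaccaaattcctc
The Cilp window held CAGCTG once, 39 bases before the start site, and the first Gsn window held it 53 bases before. The letters CAGCTG, which read the same on both strands, occur in 13.0% of the 32851 upstream windows of the table. The Tcf21 window held GTCTG at 134, 99 and 90 bases before the start site, and CAGAC on either strand occurs in 42.2% of windows. The AP-1 letters TGANTCA (6.75% of windows) and the TEAD letters GGAATG (12.6%), searched on both strands, matched in 0 of the 7 windows. TATAAA (12.4% of windows) matched on the other strand of the Ddr2 window, 185 bases before its start site. These matches are letters only, with no measure of binding, and rising and falling genes both held CAGCTG.

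Of the close relatives and partners of the 10 genes, 22 in all and each tested, some moved with them and others did not. At day 4, 6 of the 22 rose and 1 fell, against 14.4% and 10.1% of all genes. At day 7, 5 rose and 1 fell, against 13.1% and 10%. At days 2 and 21, 2 and 0 rose (3.73% and 0.622% of all genes) and 0 fell (0.854% and 0.470%). Around Pdgfra, the beta receptor Pdgfrb was at 0.01 ± 0.10 at day 4 and the ligands Pdgfa, Pdgfb and Pdgfd at -0.15 ± 0.16, 0.04 ± 0.16 and -0.19 ± 0.17. Pdgfc, the ligand of the alpha receptor with the largest effect, was at 0.87 ± 0.36 (adjusted p = 0.0857). Ddr1, the other collagen receptor, rose at day 4 (0.89 ± 0.23). In the gelsolin family Capg, an actin capping protein that macrophages also carry, rose at days 2, 4 and 7, with 1.63 ± 0.28 at day 4, the opposite direction to Gsn. All 10 macrophage markers tested rose at days 4 and 7, and their part in the rise of Capg was not tested. Svil and Flii, further members of that family, were at -0.20 ± 0.10 and -0.01 ± 0.091 at day 4 (adjusted p = 0.131 and 0.965).

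The cargo of Scara5 split. Fth1, the heavy chain of ferritin, fell at days 4 and 7 (-0.38 ± 0.12 and -0.41 ± 0.12), and Ftl1, the light chain, rose at days 2 and 4 (0.62 ± 0.14 and 0.73 ± 0.14); both genes have many near-identical copies, so that their counts are uncertain. Scara3, a related scavenger receptor, was at 1.60 ± 0.60 at day 4 (adjusted p = 0.056). Among the partners of Tcf21, the factors Tcf12, Tcf3 and Tcf4, Tcf4 alone passed at a day, with 0.34 ± 0.068 at day 7. Dpp4, the nearest relative of Fap, and Meox2, that of Meox1, did not pass at any day, with -0.21 ± 0.21 and -0.07 ± 0.17 at day 4 against 0.84 ± 0.30 for Fap and 2.50 ± 0.40 for Meox1. Cilp2 was too variable to place, at 1.41 ± 1.70 at day 4. Of the thrombospondins next to Comp, Thbs1, Thbs3 and Thbs4 rose at days 4 and 7 and Thbs2 did not pass (0.87 ± 0.38 at day 4). Thbs4, a thrombospondin of tendon and stressed muscle, rose by 4.33 ± 1.01 at day 4, about as much as Cilp.

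**Figure D4:**
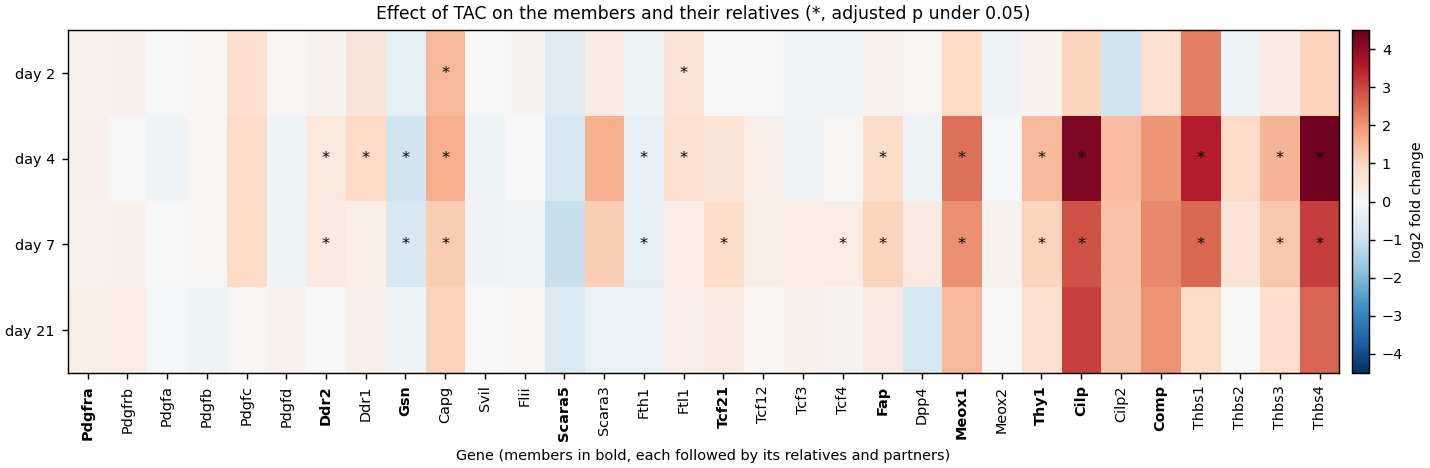
Log2 fold change of TAC over sham at each day (rows; red, higher; blue, lower) for the 10 genes (bold) and the 22 relatives and partners beside them, with a star where the adjusted p is under 0.05. Meox2 stays near 0 beside Meox1, Capg is red beside the blue of Gsn, and Thbs4 is nearly as dark as Cilp.

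Further fibroblast genes were counted in the same 2 classes. Of all genes, 14.4% rose and 10.1% fell at day 4, and 13.1% rose and 10% fell at day 7. At days 2 and 21, 3.73% and 0.622% of all genes rose. Of 20 further resident genes, 6 rose and 1 fell at day 4 and 8 rose and 3 fell at day 7, with medians of 0.17 and 0.16. Those that rose include Mfap5, a microfibril protein (2.83 ± 0.48 at day 4), Lamc1, a laminin chain (0.59 ± 0.10), and Col15a1, a basement membrane collagen (1.49 ± 0.30). Of 23 further activated genes, 22 rose at day 4 and 19 at day 7, 0 fell at either day, and the medians were 2.96 and 2.34. Tenascin-C (Tnc) was at 6.59 ± 0.94 at day 4, periostin (Postn) at 4.76 ± 0.69 and the collagen gene Col8a1 at 3.19 ± 0.50. At day 2, 0 of 20 and 4 of 23 rose, and at day 21, 2 of 20 and 1 of 23 rose, among them Mfap5 (2.29 ± 0.47) and Col8a1 (1.99 ± 0.47). The median of the 23 was larger than that of the 5 activated genes at days 2, 4 and 7 and smaller at day 21, a difference that was not tested. Of 9 genes of matrifibrocytes, the cartilage-like fibroblasts of late scars, 3 rose at day 4 and 1 at day 7 (Sox9 at both, 2.53 ± 0.44 and 1.75 ± 0.42) and 0 at days 2 and 21. At day 4 the matrifibrocyte genes Acan and Wisp2 were at 4.73 ± 1.29 and 1.59 ± 0.55.

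Markers of some other cells moved in the same libraries. Of all genes, 3.73% rose at day 2, 14.4% rose and 10.1% fell at day 4, and 13.1% rose at day 7. Cell cycle genes rose in 9 of 12 at day 2 and in 12 of 12 at days 4 and 7, with Mki67 at 3.13 ± 0.42 at day 4. Macrophage markers rose in 5 of 10 at day 2 and in 10 of 10 at days 4 and 7, with C1qb, a complement gene, at 1.44 ± 0.20 at day 4. Of 7 smooth muscle markers 3 rose at day 4, namely Acta2, Tagln and Cnn1, which the list of activated genes also holds (1.31 ± 0.28, 1.91 ± 0.41 and 2.87 ± 0.62). Of 7 pericyte markers 1 rose at day 4, near the share of all genes, and 2 fell. Cspg4 was higher (0.50 ± 0.12) and the potassium channel subunit Abcc9 lower (-0.80 ± 0.20). At day 7, 3 of the 7 pericyte markers rose and 1 fell, against 13.1% and 10% of all genes. Of 10 endothelial markers 3 fell at day 2, when 0.854% of all genes fell. At day 4, 3 fell, and at day 7, 3 rose, Pecam1 at 0.41 ± 0.082 among the latter. Skeletal muscle markers gave 1 of 3 tested as higher at day 4, Tnnt3 (2.39 ± 0.57), a gene of the fast skeletal troponin. The creatine kinase Ckm was at -0.63 ± 0.24 (adjusted p = 0.0562), and the median of the 3 was 0.22. At day 4 the 8 listed markers summed to 666 to 1134 CPM after TAC and 1263 to 1471 CPM in sham. Most of this was Ckm, at 663 to 1131 and 1256 to 1470 CPM, and Myh1, Myh2, Myh4, Actn3 and Mylpf were under the filter. The sums thus follow Ckm, whose reads cannot be assigned to skeletal or to heart muscle here.

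The genes nearest to each of the 10 in pattern were sought among 11369 named genes, by the root mean square (RMS) difference over the 8 group means of log2 CPM, each gene centred on its own mean. Nearest to Cilp were Thbs4 (RMS 0.143) and Ltbp2, a microfibril protein (0.369), and nearest to Meox1 were the collagen gene Col16a1 (0.137) and Emp1, a membrane protein (0.146). Thy1 lay by Ssc5d (0.091) and the growth factor gene Igf1 (0.099), and Fap by Il2rg, the common gamma chain of interleukin receptors (0.058), and Wbp5 (0.074). Gsn lay by Magix (0.087) and Ckm, the creatine kinase of muscle (0.091), and Scara5 by Phkg1, a muscle phosphorylase kinase subunit (0.131), and Hnmt, which inactivates histamine (0.132). Tcf21 lay by Rtkn and Galnt10 (0.060 and 0.061), Ddr2 by Erlin1 and Utp15 (0.059 and 0.063), and Pdgfra, which hardly moved, by Nars and Micall1 (0.029 and 0.033). Mgp, matrix Gla protein, lay at 0.502 from Comp, farther than the genes named here lay from the other 9. The measure favours genes that move little, since a gene's own spread over the groups was 0.093 for Pdgfra and 1.38 for Cilp.

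Single TAC libraries differed far more than sham libraries, and activated genes and some resident genes varied together (correlations below). In replicate 1 of TAC at day 2 and replicate 2 of TAC at day 21, 1 of the 5 activated genes lay above the sham range of the day, in replicate 2 at day 7, 3 did, and in the other 9 libraries 3 to 5 did. These 3 libraries are those with the least Cilp relative to sham, at 1.12, 0.640 and 1.54 times the mean of sham, against 2.00 to 23.8 times in the other 9. Their low Cilp is thus no separate result. Nppa in the 3 libraries was 754, 678 and 853 CPM, above the highest sham library at 307 CPM, and the 3 lowest values among the TAC libraries. Other load genes did not all follow: Acta1, the skeletal alpha-actin, was at 3361 CPM in replicate 2 at day 7, the highest of the 12 TAC libraries, and Myh7, the beta myosin heavy chain, was at 1626 CPM in replicate 1 at day 2, within the range of the other 9 (1382 to 5786 CPM). Taken as the mean log2 CPM of the 5 activated minus that of the 5 resident genes, sham libraries ran from -3.10 to -1.79. TAC libraries ran from -2.68 to -1.31 at day 2, -1.50 to 0.34 at day 4, -1.98 to 0.25 at day 7 and -2.54 to 0.27 at day 21. At days 4 and 7 the TAC libraries lay above all sham libraries of their day (up to -2.44 and -2.11) and at days 2 and 21 they overlapped them, on a measure that has no test here because the genes were chosen with results known.

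**Figure D5:**
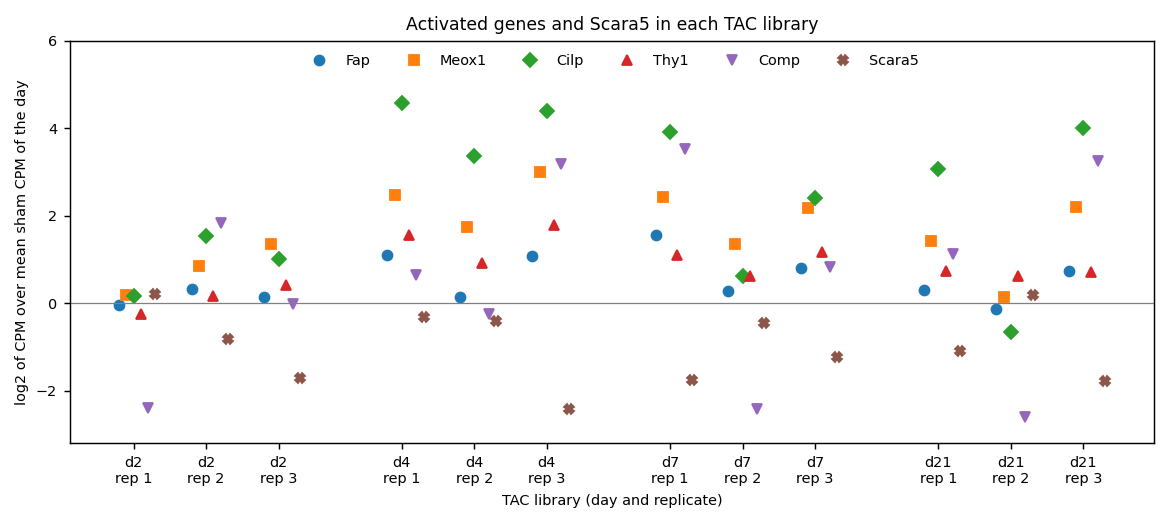
Log2 of the CPM over the mean sham CPM of the same day for the activated genes and Scara5 in each of the 12 TAC libraries (day and replicate on the x axis). In replicate 1 at day 2 and replicate 2 at day 21 Fap, Meox1 and Cilp lie near or below 0 and Scara5 just above, and in replicate 3 at days 4 and 21 they lie far apart on either side of 0.

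The shared variation was measured in the 12 TAC libraries after subtracting the mean of each day, a test added after seeing the data, with an exact permutation of the libraries within days (smallest possible p = 0.000772) and Benjamini-Hochberg adjustment over the 45 pairs. Of the 45 pairs, 29 had an adjusted p under 0.05, and in the 12 sham libraries 0 of 45 did. Cilp and Comp had r = 0.913 within days (exact permutation p = 0.00154, adjusted p = 0.00868). Over the 12 libraries without regard to day, Pearson's r was 0.861 and Spearman's rho 0.895 (permutation p = 0.0007 and 0.00025, adjusted p = 0.0105 and 0.00927), and r was 0.806 without the 2 libraries farthest from the median. Meox1 and Cilp had r = 0.886 within days (exact permutation p = 0.00309, adjusted p = 0.0107), with a pooled r of 0.903, a rho of 0.874 (permutation p = 8e-05 and 0.00055, adjusted p = 0.0036 and 0.00927) and r = 0.827 without the 2 farthest libraries. Scara5 ran against Meox1, at r = -0.901 within days (exact permutation p = 0.00231, adjusted p = 0.0107), -0.68 pooled with a rho of -0.720 (permutation p = 0.0182 and 0.0107, adjusted p = 0.0431 and 0.03), and -0.50 without the 2 farthest libraries.

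Gsn was the exception: 0 of its 9 pairs reached an adjusted p under 0.05, its r within days being largest in size with Thy1 (-0.74, exact permutation p = 0.0571, adjusted p = 0.0756) and smallest with Cilp (-0.062, exact permutation p = 0.825, adjusted p = 0.825). Pdgfra, whose mean hardly changed, still went with Fap within days (r = 0.913, exact permutation p = 0.00463, adjusted p = 0.0130). The largest r within days were those of Ddr2, a resident gene, with Fap and Comp (0.941 and 0.937, exact permutation p = 0.00154 and 0.000772, adjusted p = 0.00868 for both). Their pooled r were 0.784 and 0.587. Thy1, an activated gene, had r = 0.491 with Cilp (exact permutation p = 0.0139, adjusted p = 0.026). The sharing was thus not limited to the activated genes. Such sharing was common in these libraries: in TAC, 60.0% of the 45 pairs had a size of r within days of at least 0.7, against 23.5% of the 138060 pairs of 1 of the 10 genes with any other tested gene, and in sham 11.1% against 4.77%. The summed cardiomyocyte markers moved with it, lowest in replicate 1 of TAC at day 7 (130869 CPM), where Cilp was at 298 CPM, and 193524 and 198965 CPM in replicate 2 at days 7 and 21, where Cilp was at 30.2 and 14.1 CPM. In replicate 3 at day 21, which had the most Cilp (354 CPM), they summed to 169673 CPM. The part of tissue makeup in these correlations was not tested.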

How the data were processed

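RNA of the left ventricle was sequenced on an Illumina NextSeq500 from frozen tissue, with libraries made from total RNA by a NuGEN Ovation kit, per the labels' protocols. Per the submitters' processing notes TopHat, DESeq and the human build hg19 were named, without versions or settings. The mouse build, annotation and counting tool behind the mouse symbols were not given in the sources used here, so that no gene coordinates are printed beyond the RefSeq promoter windows. The authors deposited whole-number read counts for 24015 genes and RPKM for 23951 genes. Where the count was 0, 10.8% of the RPKM were above 0, so that the 2 tables do not rest on the same counting. Tests used the counts, and RPKM served for levels between genes and as an alternative.

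Genes were filtered with filterByExpr, scaled by TMM and fitted with 8 group means (16 residual degrees of freedom, biological coefficient of variation 0.146) by edgeR 4.0.16 in R 4.3.3, with two-sided quasi-likelihood tests. The SE is the size of the log2 fold change divided by the square root of F, and effects of genes with few reads depend on edgeR's prior count. Fits were checked on simulated data. Replicates of a group differed beyond counting noise (chi-square per degree of freedom 3.52 to 58.9), so that precision was set by the spread between libraries and no library was a copy of another. Alternatives were RLE scaling, other filters, DESeq2 1.42.0, limma 3.58.1 (voom, or trend on log2 of RPKM plus 0.1 or 1), a replicate block, each library left out, the 4 libraries over 30 CPM of Myl7 left out, Myl7 as a covariate, and the 6 libraries of a day alone. The average over days and the correlations between genes were added after seeing the data.

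The 10 genes and all gene lists were chosen with earlier results of these data known. Named were the 10 genes, 22 relatives and partners, up to 3 genes of each list with the smallest p averaged over the days, and for each of the 10 the 2 genes nearest in pattern (average log2 CPM 1 or more). Values of some genes that the naming rule or the marker lists reach are not reported here.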

Additional observations from a re-analysis of the deposited data

How the results depend on the processing

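Of 1070 recomputed effects of the 10 genes, 985 kept their direction and side of the threshold, 41 lost and 30 gained a call, and 14 changed sign, 0 of them effects that had been called. At day 21 the number of higher genes, 0, became 2 with no filter, 3 with DESeq2 and 5 with Myl7 as a covariate. With that covariate it became 2 at day 2, and the number of lower genes at day 7 became 2, as it did with the 6 libraries of that day alone. Without the libraries over 30 CPM of Myl7, 2 in place of 6 were higher at day 7. DESeq2 found 1 effect that differed between days 2 and 4 and 1 over the 4 days. Changes of sign were of Tcf21 at day 2 (main value -0.02) with voom (0.022), without the Myl7 libraries (0.51) and with the covariate (0.15), of Pdgfra at day 7 without the Myl7 libraries (-0.0801), of Comp at day 4 with the covariate (-0.27) and of Ddr2 at day 21 with the covariate (0.039). Without the Myl7 libraries, sham at day 2 was left with replicate 1 alone, which had the lowest Tcf21 of the 12 sham libraries (3.69 CPM). The causes of the changes were not tested. Shares of all genes called in these settings are not reported here, so that the counts cannot be read as particular to the 10 genes.

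Leaving out 1 library at a time gave 2 to 6 higher and 1 to 2 lower genes at day 7, 0 to 2 higher at day 21, and 0 to 1 with an effect that differed over the days. It moved the log2 fold change of Tcf21 at day 2 from -0.23 to 0.13, of Comp at day 2 from -0.65 to 1.54, of Thy1 at day 2 from -0.0077 to 0.30, of Pdgfra at day 7 from -0.0797 to 0.29 and of Ddr2 at day 21 from -0.10 to 0.057. Where an arm was left with 2 libraries the spread was pooled over all groups. Deviations of same-numbered libraries were weakly related at most (r = -0.151 to 0.141), and in 3 of 12 cases the own number was the best match. With 3 libraries a group these values cannot decide whether equal numbers mark paired samples. A replicate block within days gave 4 higher and 1 lower gene at both day 4 and day 7, and 6 higher and 2 lower for the average. A fit of the sham libraries alone, with a block by replicate number, called 3 genes between days. The 0 of the main fit (0.680% of all genes) came from all 24 libraries without a block, and these 2 changes were not separated. The share of all genes called by the fit of sham libraries alone is not reported here. Counts were as low as 9 reads for Comp and 44 for Fap in a library, which limits the precision of those values.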
